A study of Mus musculus with 4 samples.

Results

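The genes described here are 10 genes of mineralized tissue: the matrix proteins Dspp, Dmp1, Ibsp, Spp1 and Bglap, the osteoblast membrane protein Ifitm5, the transcription factors Sp7 and Runx2, and the enzymes Alpl and Phex. They were looked up by gene symbol in a table of 15887 genes, and 9 of the 10 had a row. Dspp, the gene that best marks odontoblasts, was not analysed here, and every other member is shared with osteoblasts. RNA of odontoblasts and of osteoblasts therefore cannot be told apart by these rows, and the 9 genes are called mineralization genes.

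The table holds CAGE (cap analysis of gene expression) counts, that is, sequenced 5′ ends of capped RNA added up per gene. It has 4 libraries with 1 library per condition, all from tooth germs of ICR mouse embryos, an outbred stock, grown as organ cultures with several germs pooled per library. The library 25°C_CPA came from germs cultured at 25 °C with cyclophosphamide (CPA), an alkylating drug that damages DNA, and 25°C_DMSO from germs at 25 °C with the solvent DMSO. The library 37°C_CPA came from germs at 37 °C with CPA, and 37°C_DMSO from germs at 37 °C with DMSO. All were exposed for 3 days. The sources disagree on the CPA dose (0.25 mM in the sample records, 2.5 mM in the series design), on the age of the embryos (E13.5 in the growth record, E14.5 in the stage label) and on a further 4 days without CPA, which only the sample records give. The effect of the drug and that of temperature on these genes were the questions addressed.

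Mineralized tissue forms when osteoblasts and odontoblasts lay down a collagen matrix and then load it with calcium phosphate. RUNX2 is the transcription factor that commits cells to this fate and SP7 (osterix) acts after it. DMP1, bone sialoprotein (Ibsp) and osteopontin (Spp1) belong, with dentin sialophosphoprotein (Dspp), to the SIBLING family of acidic matrix phosphoproteins that bind mineral. IFITM5 is a membrane protein of mature osteoblasts, and osteocalcin (Bglap) is a late osteoblast product. ALPL removes pyrophosphate, which blocks mineral growth, and PHEX is a membrane endopeptidase that keeps phosphate wasting in check.

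The SIBLING genes lie side by side. On mm9 (GENCODE vM1 annotation, matched by gene identifier), Dmp1 lies on chromosome 5 at 104631632 to 104643121, Ibsp at 104728190 to 104740488 and Spp1 at 104864137 to 104870069, all on the plus strand. Between the end of Dmp1 and the start of Ibsp are 85069 bases, and between the end of Ibsp and the start of Spp1 are 123649. Ifitm5 lies on chromosome 7 at 148134862 to 148136138, Bglap on chromosome 3 at 88187423 to 88188386, and Sp7 on chromosome 15 at 102187040 to 102197285, all on the minus strand. Runx2 (chromosome 17, 44632936 to 44951746), Alpl (chromosome 4, 137297648 to 137352299) and Phex (chromosome X, 153596618 to 153853244) are on the minus strand as well. Runx2 and Phex overlap other annotated genes. So does Phospho1, a gene of phosphate handling described below, with Zfp652 on its strand and Abi3 on the other. The strand setting of the counting is not given in the sources used here, so tags of overlapping genes may have been shared.

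CAGE counts starts of transcripts, so the 250 bases before the start are shown for the 3 genes whose responses differed most and for Bglap, each from RefSeq (GRCm38.p6) and placed on mm9 by an exact match that was unique there. Sequences run 5′ to 3′ on the strand of the gene, and capitals mark letters of a motif that was searched on both strands.
Ibsp (chr5:104728056-104728305, plus strand): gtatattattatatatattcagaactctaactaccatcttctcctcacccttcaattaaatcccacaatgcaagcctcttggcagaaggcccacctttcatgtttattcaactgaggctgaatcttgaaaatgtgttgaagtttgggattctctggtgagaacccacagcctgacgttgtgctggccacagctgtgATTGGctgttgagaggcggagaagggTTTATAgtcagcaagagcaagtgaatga
Ifitm5 (chr7:148136143-148136392, minus strand): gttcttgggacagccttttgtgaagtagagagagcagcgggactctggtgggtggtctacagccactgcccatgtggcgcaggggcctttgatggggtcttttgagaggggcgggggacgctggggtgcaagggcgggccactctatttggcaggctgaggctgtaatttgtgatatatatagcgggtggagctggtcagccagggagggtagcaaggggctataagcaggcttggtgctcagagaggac
Spp1 (chr5:104863880-104864129, plus strand, the first of its annotated starts): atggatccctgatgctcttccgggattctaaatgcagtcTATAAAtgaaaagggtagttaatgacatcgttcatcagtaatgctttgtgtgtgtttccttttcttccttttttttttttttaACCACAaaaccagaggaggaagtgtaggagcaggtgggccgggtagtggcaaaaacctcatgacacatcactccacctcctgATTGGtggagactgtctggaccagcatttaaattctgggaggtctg
Bglap (chr3:88188389-88188638, minus strand): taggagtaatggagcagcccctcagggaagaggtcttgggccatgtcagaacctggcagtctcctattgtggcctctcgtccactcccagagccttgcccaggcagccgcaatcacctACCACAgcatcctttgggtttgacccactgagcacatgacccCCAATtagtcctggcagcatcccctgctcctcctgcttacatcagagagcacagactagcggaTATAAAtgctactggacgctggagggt

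The RUNX motif was searched as TGTGGT and was present in 14.0% of all 32851 windows of this length. The homeodomain motif, TAATTA, was present in 4.84%. The cyclic AMP response element, TGACGTCA, was present in 1.55%. The TATA box, TATAAA, was present in 12.4%, and the CCAAT box, by its own letters, in 33.8%. No matches overlapped in the windows shown. Ibsp had the TATA box letters in reverse orientation, first letter 28 bases before the start, and the CCAAT letters in reverse at 54 bases. Its start in GENCODE vM1 lies inside the window shown. Spp1 had a RUNX match 128 bases before the start and Bglap 1 at 132 bases, both on the opposite strand, while the Ibsp and Ifitm5 windows had none. RUNX letters were present in 4 of the 11 windows of the 8 genes with an entry. A match describes the letters and is no evidence of binding.

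Library totals were between 15101186 and 16449264 counts, the highest 1.09 times the lowest. Counts were scaled with TMM factors (0.967 to 1.03) and are given as normalized CPM, the count as a share of the scaled library total in CPM units. A fold is the ratio of the normalized CPM, and its interval in parentheses is the exact binomial 95% interval of the pair of counts. Intervals cover counting error only, since they are computed from that pair of counts and not from replicates. The sources used here name no molecular identifiers, so copies of the same molecule may have been counted more than once. Genes with 50 or more counts in at least 1 of the 2 libraries compared are termed measured, and those that also differed 2-fold or more are termed called. Because each condition is a single library, no difference could be set against the spread of replicates, and p-values were not computed. Each library enters 2 of the 4 comparisons, so the comparisons are not independent of each other. In such bulk RNA, fewer cells of a type and less RNA per cell cannot be told apart.

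The 9 mineralization genes were lowest as a sum in the cold and highest in 37°C_DMSO. Their summed level was 137 normalized CPM in 25°C_CPA, 118 in 25°C_DMSO, 307 in 37°C_CPA and 620 in 37°C_DMSO. Ibsp and Spp1 carried most of it at 37 °C, and without them the sums were 83.2, 84.8, 94.2 and 173 normalized CPM in the same order. No member was at 0 counts in any library.

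**Figure D1:**
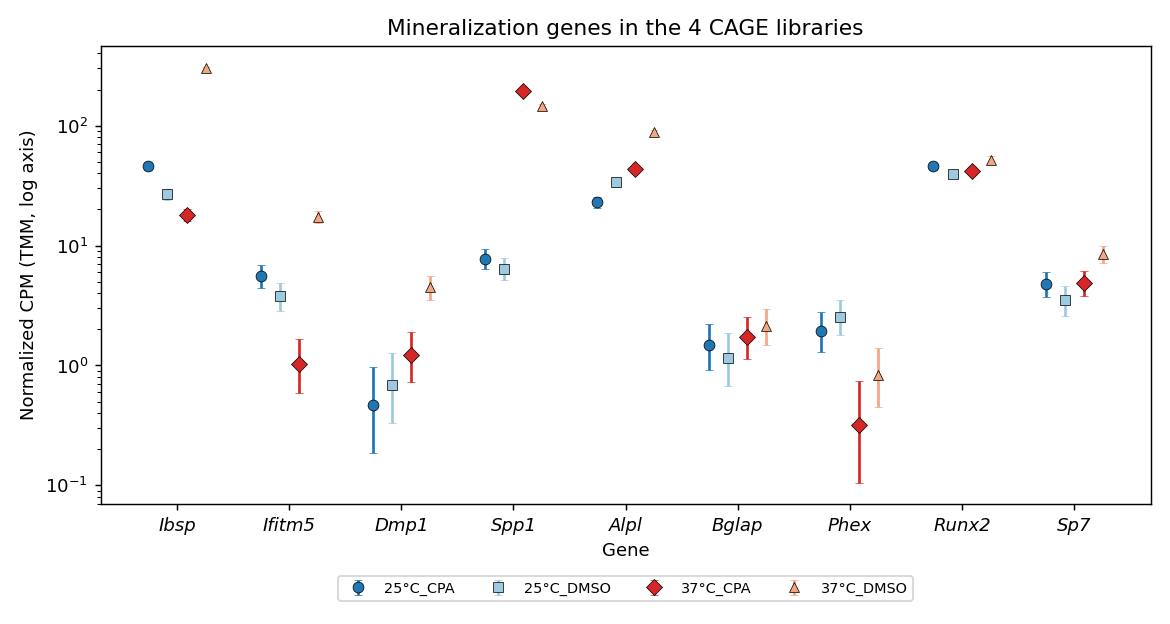
Normalized CPM (log axis) of the 9 mineralization genes in the 4 libraries, 1 point per library with its 95% Poisson counting interval, libraries ordered 25°C_CPA, 25°C_DMSO, 37°C_CPA, 37°C_DMSO. Ibsp was at 301 in 37°C_DMSO alone and between 18.0 and 45.8 in the others, while Spp1 was at 195 and 145 in the libraries at 37 °C and at 7.74 and 6.37 in those at 25 °C.

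At 37 °C, 4 of the 7 measured members, Ibsp, Ifitm5, Dmp1 and Alpl, were lower with CPA and none was higher. Over all 13307 genes measured in this comparison, 1.59% were called lower and 2.4% higher. The median log2 fold was -1.01 over the 7 members and -0.02 over all measured genes. Sp7, Runx2 and Spp1 were not called, and Bglap and Phex had under 50 counts in both libraries.

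At 25 °C, none of the 6 measured members was called with CPA, against 0.118% of 12704 measured genes called lower and 0.142% called higher. The median log2 fold was 0.36 over the members and 0.00 over all measured genes. Counting intervals lay above 1 for Ibsp, Ifitm5 and Runx2 and below 1 for Alpl.

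Without the drug, 6 of the 7 measured members were lower at 25 °C than at 37 °C: Spp1, Ibsp, Dmp1, Ifitm5, Alpl and Sp7. None was called higher. Of 13491 measured genes, 11.5% were lower and 6.45% higher in 25°C_DMSO than in 37°C_DMSO, and the median log2 fold was -2.21 over the members and -0.01 over all measured genes. Runx2 was the measured member that was not called.

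Between the CPA libraries the pattern was another: in 25°C_CPA against 37°C_CPA, Ifitm5 and Ibsp were higher and Spp1 was lower, 3 of 6 measured members. The background here was 6.32% higher and 10.9% lower of 13343 measured genes. The median log2 fold of the members was 0.06, against 0.00 over all measured genes. The drug-treated library at 25 °C thus had more Ibsp and Ifitm5 RNA than the drug-treated library at 37 °C, and less Spp1 RNA.

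**Figure D2:**
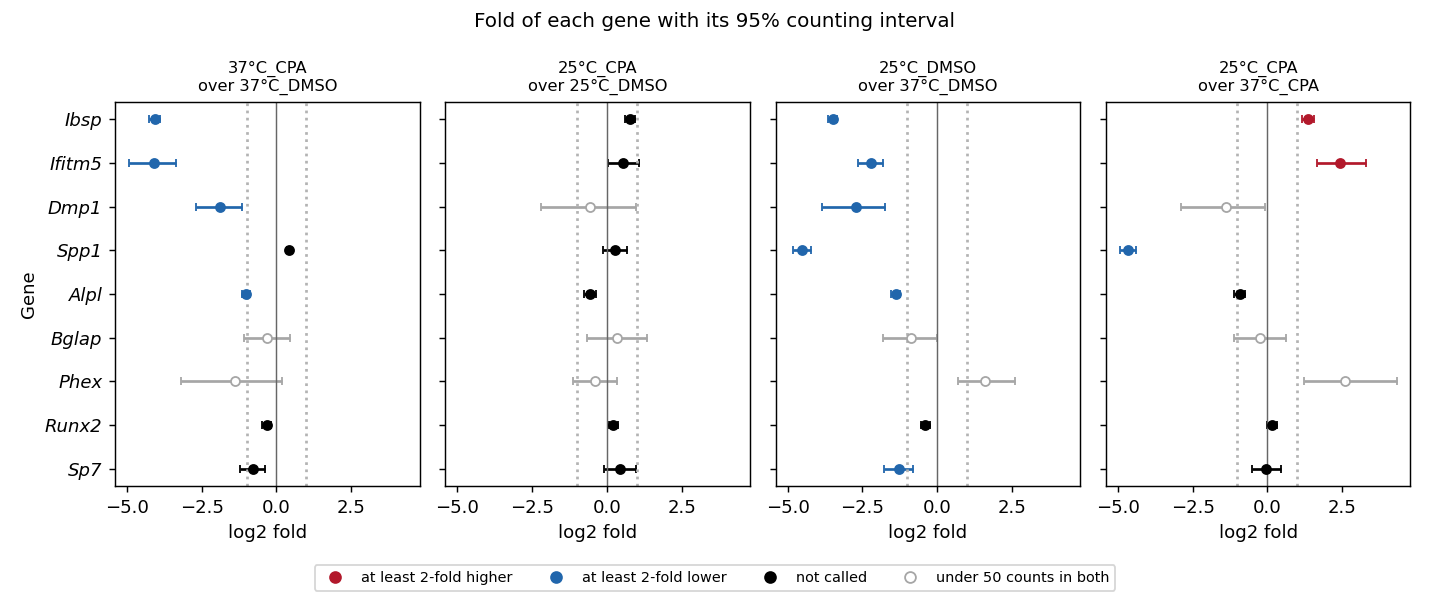
Log2 fold of each mineralization gene with its 95% counting interval in the 4 comparisons, coloured by call, with open grey points for genes under 50 counts in both libraries and dotted lines at 2-fold. Ibsp and Ifitm5 lie near -4 for CPA at 37 °C (-4.07 and -4.09) and above 0 for CPA at 25 °C (0.78 and 0.56), and Spp1 lies near -4.5 in each comparison of 25 °C with 37 °C (-4.51 and -4.65).

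Ibsp, which binds collagen and nucleates hydroxyapatite, was the most abundant member in 37°C_DMSO. It had 686 counts in 25°C_CPA, 390 in 25°C_DMSO, 281 in 37°C_CPA and 5098 in 37°C_DMSO. One library stood high and the other 3 were low, with the drug-treated germs at 37 °C the lowest. CPA at 37 °C gave a fold of 0.0597 (0.0527 to 0.0673), which is 16.8-fold lower (14.9 to 19.0). CPA at 25 °C gave 1.71 (1.51 to 1.95), in the opposite direction and under the 2-fold call. The 2 log2 folds of CPA, at 37 °C minus at 25 °C, differed by -4.84 (counting interval -5.09 to -4.59). Without the drug, 25°C_DMSO was 11.3-fold lower than 37°C_DMSO (10.2 to 12.5), and with it 25°C_CPA was 2.55-fold higher than 37°C_CPA (2.21 to 2.94).

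Ifitm5, whose mutation causes a form of osteogenesis imperfecta in humans, followed Ibsp at a lower level. It had 83 counts in 25°C_CPA, 55 in 25°C_DMSO, 16 in 37°C_CPA and 295 in 37°C_DMSO. The order of the libraries was the same as for Ibsp, and the 16 counts in 37°C_CPA leave its folds wide. CPA at 37 °C left 37°C_CPA 17.0-fold lower than 37°C_DMSO (10.3 to 30.2), and at 25 °C the CPA fold was 1.47 (1.03 to 2.11), not called. The CPA log2 fold at 37 °C minus that at 25 °C was -4.65 (-5.52 to -3.77). Ifitm5 was 4.63-fold lower in 25°C_DMSO than in 37°C_DMSO (3.46 to 6.29) and 5.41-fold higher in 25°C_CPA than in 37°C_CPA (3.14 to 9.90).

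Spp1, a secreted phosphoprotein that slows crystal growth and is also made by macrophages and epithelia, was called in both comparisons of temperature and in neither comparison of the drug. It had 116 counts in 25°C_CPA, 93 in 25°C_DMSO, 3041 in 37°C_CPA and 2463 in 37°C_DMSO, high in both libraries at 37 °C and low in both at 25 °C. It was 22.9-fold lower in 25°C_DMSO than in 37°C_DMSO (18.6 to 28.4), and 25.1-fold lower in 25°C_CPA than in 37°C_CPA (20.9 to 30.5). CPA gave 1.34 (1.27 to 1.41) at 37 °C and 1.22 (0.917 to 1.61) at 25 °C, neither called. The difference of the CPA log2 folds was 0.14 (-0.26 to 0.54), an interval that includes 0. Spp1 was thus not lower with CPA at 37 °C, where its chromosomal neighbours Ibsp and Dmp1 were. Ibsp counts per Spp1 count, a ratio chosen after the values were seen and free of library scaling, were 5.91 in 25°C_CPA, 4.19 in 25°C_DMSO, 0.0924 in 37°C_CPA and 2.07 in 37°C_DMSO.

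A row of the table under the identifier Gm42793 had 114, 91, 3020 and 2448 counts in the order 25°C_CPA, 25°C_DMSO, 37°C_CPA, 37°C_DMSO. These were within 5% or 3 counts of Spp1 in every library and on the same strand. Whether the same tags were counted under both identifiers was not tested.

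Dmp1, which directs mineral formation in dentin and bone and acts in osteocytes on phosphate balance, was rare. It had 7 counts in 25°C_CPA, 10 in 25°C_DMSO, 19 in 37°C_CPA and 76 in 37°C_DMSO. As with Ibsp, 37°C_DMSO was the high library. It was 3.69-fold lower with CPA at 37 °C (2.21 to 6.47) and 6.56-fold lower in 25°C_DMSO than in 37°C_DMSO (3.38 to 14.2). At 25 °C with and without CPA both counts were 10 or fewer, and the fold of 0.682 was not read.

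Bglap encodes osteocalcin and lies beside its near-identical copies Bglap2 and Bglap3 on chromosome 3, so the split of tags between them is uncertain. It had 22 counts in 25°C_CPA, 17 in 25°C_DMSO, 27 in 37°C_CPA and 36 in 37°C_DMSO, under 50 in every library and called in no comparison. Bglap2 had 9, 13, 12 and 7 counts in that order and was not measured either. Bglap3 had 5, 13, 436 and 442 counts, separated by temperature. It was 29.3-fold lower in 25°C_DMSO than in 37°C_DMSO (17.0 to 55.5) and 83.6-fold lower in 25°C_CPA than in 37°C_CPA (35.6 to 259). The drug left it at 1.07 (0.934 to 1.22) at 37 °C. Of these copies only Bglap3 reached 50 counts in any library, and it shared with Spp1, and not with Ibsp, the split of the libraries by temperature.

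Alpl, tissue-nonspecific alkaline phosphatase, frees phosphate from pyrophosphate at the surface of mineralizing cells. It had 345 counts in 25°C_CPA, 491 in 25°C_DMSO, 681 in 37°C_CPA and 1486 in 37°C_DMSO. It was lower with CPA at both temperatures. The fold was 0.496 (0.453 to 0.544) at 37 °C, a call whose interval spans 2-fold, and 0.685 (0.595 to 0.787) at 25 °C, not called. The difference of these log2 folds was -0.46 (-0.70 to -0.23). Alpl was 2.61-fold lower in 25°C_DMSO than in 37°C_DMSO (2.36 to 2.90), and the fold of 25°C_CPA over 37°C_CPA was 0.528 (0.463 to 0.602), not called.

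Phex, mutated in X-linked hypophosphataemia, had 29 counts in 25°C_CPA, 37 in 25°C_DMSO, 5 in 37°C_CPA and 14 in 37°C_DMSO, too few for a call. It was the member whose counts were highest in the cold. Its folds were 3.06 for 25°C_DMSO over 37°C_DMSO (1.62 to 6.13) and 6.05 for 25°C_CPA over 37°C_CPA (2.32 to 20.0).

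The transcription factors had smaller folds than Ibsp, Ifitm5 and Dmp1. Runx2 had 691 counts in 25°C_CPA, 578 in 25°C_DMSO, 649 in 37°C_CPA and 880 in 37°C_DMSO, and was called in no comparison. Its CPA fold was 0.799 (0.721 to 0.885) at 37 °C and 1.16 (1.04 to 1.30) at 25 °C, and the log2 difference was -0.54 (-0.76 to -0.33). The fold of 25°C_DMSO over 37°C_DMSO was 0.761 (0.684 to 0.846, log2 -0.39), and scaling to Gapdh turned that direction (log2 0.03). Gapdh itself had 117 counts in 25°C_CPA, 138 in 25°C_DMSO, 193 in 37°C_CPA and 215 in 37°C_DMSO, fewer than Runx2 in each. Runx2 levels lay between 39.6 and 52.0 normalized CPM.

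Sp7 had 71 counts in 25°C_CPA, 51 in 25°C_DMSO, 76 in 37°C_CPA and 143 in 37°C_DMSO. Its CPA fold was 0.576 (0.430 to 0.765) at 37 °C and 1.36 (0.933 to 1.98) at 25 °C, neither called, with a log2 difference of -1.24 (-1.89 to -0.58). It was 2.42-fold lower in 25°C_DMSO than in 37°C_DMSO (1.75 to 3.40), a call whose interval spans 2-fold. Per Runx2 count, a ratio also chosen after its values were seen, Ifitm5 was at 0.120 in 25°C_CPA, 0.0952 in 25°C_DMSO, 0.0247 in 37°C_CPA and 0.335 in 37°C_DMSO. Ibsp per Runx2 was at 0.993, 0.675, 0.433 and 5.79 in the same order. Both ratios were highest in 37°C_DMSO and lowest in 37°C_CPA.

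The other genes of mineralization were read from lists by function. Of 11 measured further bone and dentin matrix genes, 1 was lower with CPA at 37 °C, Omd (log2 fold -1.09), a keratan sulfate proteoglycan of bone, and none was higher, against 1.59% lower and 2.4% higher over all measured genes, with a median log2 fold of -0.65. Col1a1, the main collagen chain, had 24034 counts in 37°C_CPA and 49104 in 37°C_DMSO (log2 -0.92), just short of a call, and Sparc, a collagen-binding protein, was at -0.81. With CPA at 25 °C none of 9 was called (median 0.02), where only 0.118% of all measured genes were lower and 0.142% higher. In 25°C_DMSO over 37°C_DMSO, 7 of 11 were lower, against 11.5% of all measured genes, with a median of -1.85, among them Bglap3, Col1a1 (-2.36), Bgn (-2.30), Omd (-2.22) and Sparc (-2.19).

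Among 10 further genes of phosphate and pyrophosphate handling, 2 were lower with CPA at 37 °C, where the background was 1.59%. Phospho1, which releases phosphate inside matrix vesicles, had 54 counts in 37°C_CPA and 363 in 37°C_DMSO (log2 -2.63), and Smpd3, a sphingomyelinase needed for skeletal mineralization in mice, was at -1.01. None of the 10 was higher, and the median was -0.20. With CPA at 25 °C none of the 10 was called, where only 0.118% of all measured genes were lower and 0.142% higher. Phospho1 had 117 counts in 25°C_CPA and 100 in 25°C_DMSO, so its order over the libraries was that of Ifitm5 and Ibsp. In 25°C_DMSO over 37°C_DMSO 3 of 10 were lower, against 11.5% of all measured genes: Smpd3 (-1.75), Phospho1 (-1.65) and Fam20c (-1.12), the kinase that phosphorylates SIBLING proteins.

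None of the 4 measured inhibitors of mineralization, Spp1 among them, was called with CPA at 37 °C, against 1.59% lower and 2.4% higher over all measured genes. Mgp was at -0.36, Enpp1, which makes pyrophosphate, at -0.30 and Ank, which raises it outside the cell, at 0.38. Of 13 further transcription factors none was called with CPA at 37 °C, beside the same 1.59% and 2.4%. Their median was -0.38, with Dlx5 the lowest at -0.74 and Cbfb, the partner of RUNX2, the highest at 0.31. In 25°C_DMSO over 37°C_DMSO 3 of them were lower, against 11.5% of all measured genes: Msx2 (-1.78), Klf4 (-1.61) and Dlx3 (-1.53). Of 15 genes of osteoblast signalling and adhesion none was called with CPA at 37 °C (median -0.38), again beside 1.59% and 2.4%. In 25°C_DMSO 5 of the 15 were lower than in 37°C_DMSO, beside the same 11.5%, with the collagenase Mmp13 the lowest at -1.87.

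**Figure D3:**
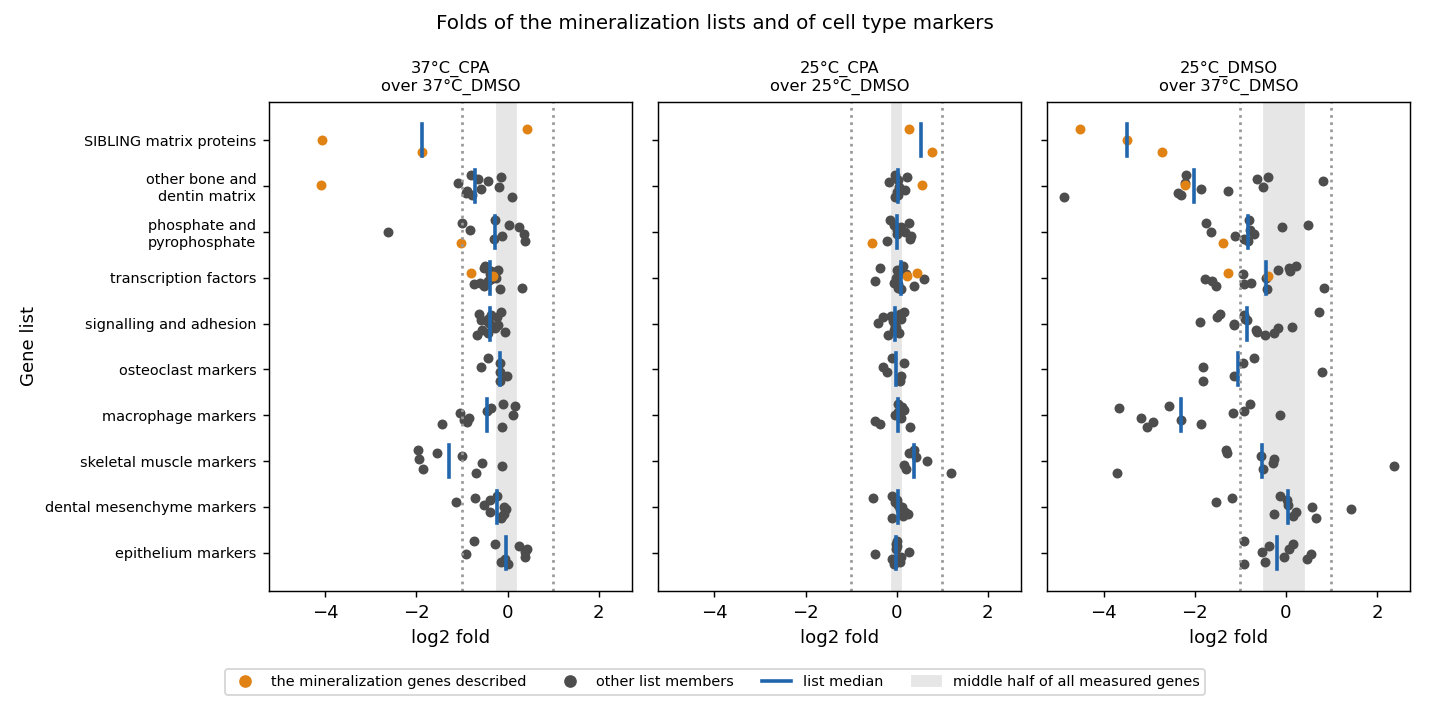
Log2 fold of the measured members of gene lists by function and of cell type marker lists in 3 comparisons, each point 1 gene. The mineralization genes that were measured are in orange and other list members, cell type markers included, in grey. A blue tick stands at each list's median and a grey band over the middle 50% of all measured genes. In the panel for CPA at 37 °C the lowest grey points of the lists by function are Phospho1 (-2.63) and Omd (-1.09). The median of the skeletal muscle markers is at -1.28 in that panel, below Omd. In the panel for cold Bglap3 is at -4.87.

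Markers of other cell types moved with these comparisons as well. The counts of lower markers stand beside 1.59% of all measured genes lower with CPA at 37 °C and 11.5% lower in 25°C_DMSO than in 37°C_DMSO. Summed macrophage markers, 12 of 13 with a row, were at 215 normalized CPM in 25°C_CPA, 210 in 25°C_DMSO, 714 in 37°C_CPA and 984 in 37°C_DMSO, with 2 of 11 measured lower with CPA at 37 °C and 8 of 11 lower in the cold. Summed osteoclast markers, 8 of 11 with a row, were at 158, 160, 260 and 298 in the same order, with none of 6 called with CPA at 37 °C and 3 of 6 lower in the cold. Neither list had its lowest sum in 37°C_CPA, whereas the muscle and dental mesenchyme lists did. Summed skeletal muscle markers, 10 of 12 with a row, were at 110 in 25°C_CPA, 86.0 in 25°C_DMSO, 49.2 in 37°C_CPA and 107 in 37°C_DMSO, with 5 of 8 measured lower with CPA at 37 °C. Cartilage markers, 5 of 12 with a row, were at 22.5, 22.8, 58.7 and 57.7. Dental mesenchyme markers, 11 of 11 with a row, were at 1356 in 25°C_CPA, 1347 in 25°C_DMSO, 1091 in 37°C_CPA and 1407 in 37°C_DMSO. The order of libraries for this sum was that of Ibsp and Ifitm5, but over a far narrower range, with the 25 °C sums nearly equal. The sum joins markers that went opposite ways, so its order is not that of the single markers. Lhx8 was at 123, 116, 41.8 and 42.9 normalized CPM in the same order of libraries, and Prrx2 at 62.0, 88.6, 123 and 201. With CPA at 37 °C, 1 of 11 was lower. Epithelium markers were between 3357 and 3832, so RNA of both tooth germ layers was present in every library. No marker with a row was at 0 in any library, and the part of these cell types in the results above was not tested.

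The genes nearest to each member in pattern were taken by the Euclidean distance of centred log2(normalized CPM + 1) over the 4 libraries, among genes with at least 200 counts in their highest library. For Ifitm5 they were Car3 (0.464), Phospho1 (0.652), Ibsp (1.12), Actc1 (1.21) and Smoc1 (1.34). For Ibsp they were Ifitm5 (1.12), Car3 (1.44), Phospho1 (1.48), Des (1.87) and Aif1 (1.93). Ibsp and Ifitm5 thus named each other and shared Car3 and Phospho1, and their lists also held the muscle genes Actc1 and Des and the macrophage gene Aif1. Des and Aif1 were lowest in 25°C_DMSO (49 and 76 counts) and not in 37°C_CPA (80 and 109), unlike Ibsp. Car3, a carbonic anhydrase of muscle and fat, had 83 counts in 25°C_CPA, 82 in 25°C_DMSO, 13 in 37°C_CPA and 297 in 37°C_DMSO.

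For Spp1 the nearest were Gm42793 (0.0157), Sbsn (0.151), Ly6d (0.330), Serpinb12 (0.348) and Cysrt1 (0.413). Sbsn, Ly6d and Cysrt1 are known from stratified epithelium. No bone matrix gene was among them. With 4 libraries such distances only describe these samples.

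**Figure D4:**
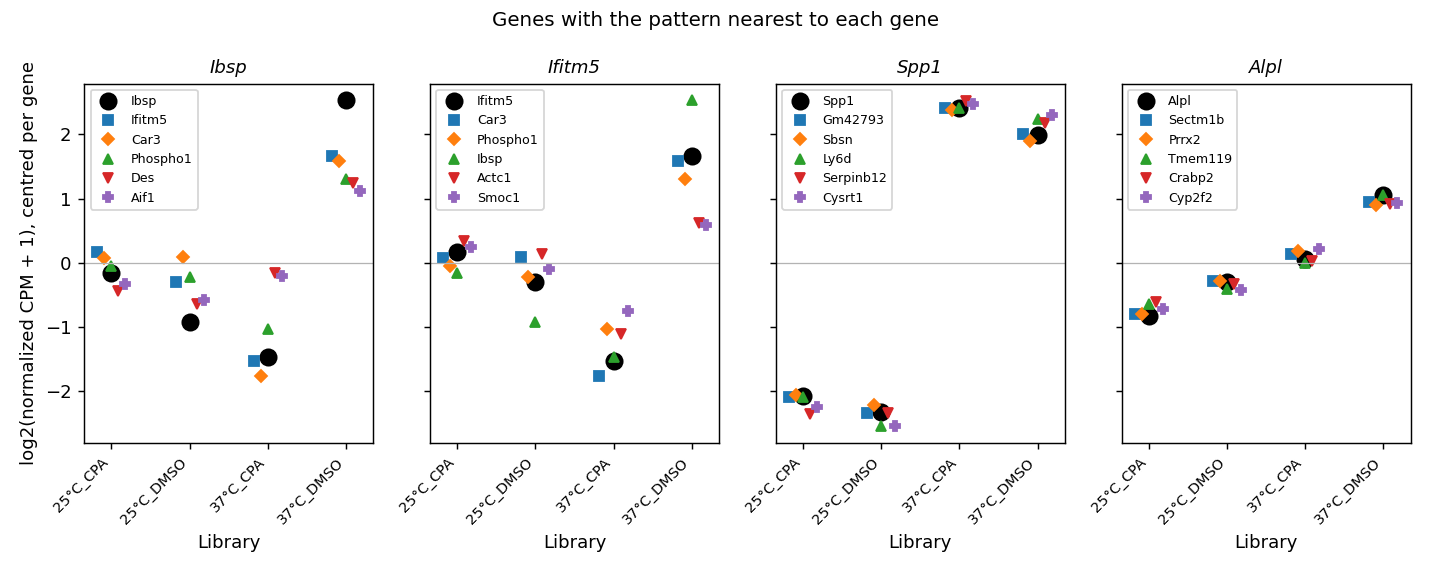
Centred log2(normalized CPM + 1) over the 4 libraries for Ibsp, Ifitm5, Spp1 and Alpl, each with its 5 nearest genes. Ibsp and Ifitm5 have their lowest point in 37°C_CPA and their highest in 37°C_DMSO. In the Ibsp panel, Des and Aif1 are lowest in 25°C_DMSO instead. The Spp1 panel separates the libraries at 25 °C from those at 37 °C.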

How the data were processed

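Total RNA of the cultured germs went to a service provider for CAGE. The study's methods give mm9 as the genome for the tag alignment, and the MOIRAI pipeline with SAMtools for defining start sites. BWA 0.5.9 and the builds mm9 and GRCh38 stand in the submitters' processing notes with no role. How tags were added up per gene is not given in the sources used here. What the authors deposited is a table of raw whole-number counts for 15887 genes.

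TMM factors came from edgeR 4.0.16 (R 4.3.3), fitted to the 4 libraries together. Folds, exact binomial intervals, calls, distances and motif matches were computed with SciPy 1.17.1, pandas 2.3.3 and numpy 2.4.6 under Python 3.11.15, and figures drawn with matplotlib 3.10.9. The calculation of folds, exact binomial intervals and calls was tested on simulated counts with counting error only. The interval of a difference of 2 log2 folds is a Wald interval on the counts, given where all counts were at least 10. No member had more than 1 row, and 14333 of 15887 identifiers matched GENCODE vM1. The floor for a count of 0 was 3 counts (0.177 to 0.205 CPM), which no member needed.

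The 10 members, the 7 gene lists and the 6 marker lists were chosen with earlier results of these data known. All members were named. Any gene of the lists could be named, and of each list the 2 with the highest and the 2 with the lowest fold, with the 5 nearest genes of each member. Mepe and Dspp were not analysed here, and RefSeq promoter entries were used for 8 genes.

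Scaling was varied (none, total count, size factors of DESeq2 1.42.0, Gapdh), as were the count minimum (200 or none), the call (interval wholly beyond 2-fold), 10 added counts and the sum over rows of a symbol. Their use for the difference of the CPA folds was chosen after seeing the data.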

Additional observations from a re-analysis of the deposited data

Results flagged for a closer look

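The log2 fold with CPA had opposite signs at the 2 temperatures in 5 mineralization genes, and in 3 of them, Ibsp, Ifitm5 and Runx2, both counting intervals also excluded no change. The share of all genes with such opposite signs was not computed, so these counts cannot be read as particular to the mineralization genes. The middle 50% of all measured genes had a log2 fold with CPA of -0.24 to 0.19 at 37 °C and -0.09 to 0.10 at 25 °C. The log2 fold of Ibsp was -4.07 at 37 °C (37°C_CPA over 37°C_DMSO) and 0.78 at 25 °C (25°C_CPA over 25°C_DMSO). That of Ifitm5 was -4.09 at 37 °C and 0.56 at 25 °C. That of Runx2 was -0.32 at 37 °C and 0.22 at 25 °C. The other genes were Sp7, at -0.80 at 37 °C and 0.44 at 25 °C, and Bglap, at -0.30 at 37 °C and 0.33 at 25 °C with under 50 counts in every library. With 1 library per condition the difference was not tested against replicate spread, and only the folds of Ibsp and Ifitm5 at 37 °C were past 2-fold.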

How the results depend on the processing

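No result changed direction among those called, under any alternative run. The number of members called lower with CPA at 37 °C and in the cold stayed within 1.5 times its main value. Counts that moved were: members called higher in 25°C_CPA over 25°C_DMSO, 1 with scaling to Gapdh (Ibsp) against 0, and in 25°C_DMSO over 37°C_DMSO, 1 with no minimum count (Phex) against 0. In 25°C_CPA over 37°C_CPA, 1 was higher with a minimum of 200 counts against 2 (Ifitm5 lost), and 2 were lower with no minimum against 1 (Dmp1 added). Alpl was not called with CPA at 37 °C when scaled to Gapdh (0.511), with 10 counts added, or when the interval had to lie beyond 2-fold, and Dmp1 was lost at 200 counts. In the cold with DMSO, scaling to Gapdh removed Alpl (0.515) and Sp7 (0.556), and Sp7 was also lost at 200 counts and by the interval, Dmp1 at 200 counts. With scaling to Gapdh the median over all genes shifted by 0.43 (log2) in 25°C_DMSO over 37°C_DMSO, 0.28 in 25°C_CPA over 25°C_DMSO and 0.66 in 25°C_CPA over 37°C_CPA, and with no scaling by -0.21 and -0.11 in 25°C_DMSO over 37°C_DMSO and 37°C_CPA over 37°C_DMSO. Over all genes, the share of calls that were higher was 60.2% for CPA at 37 °C and 43.2% without scaling (331 lower against 212). It was 54.5% for CPA at 25 °C and 89.7% with Gapdh (52 higher against 18, 6 lower against 15). It was 35.9% for cold with DMSO, 72.2% with Gapdh (2399 higher against 870, 922 lower against 1556) and 20.7% without scaling (555 higher). It was 36.7% for cold with CPA and 85.5% with Gapdh (3733 higher against 843, 635 lower against 1456). The causes of these shifts were not tested. Scaling to Gapdh rests on 215 counts or fewer in every library and so carries counting error of its own. No paired analysis was possible because each condition has 1 library, and no library could be left out for the same reason. Depth limits Bglap, Phex and Dmp1, whose counts were under 50 in most libraries.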

Other observations

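Ifitm5 belongs to a family of membrane proteins, some of whose other members are known for restricting viruses. With CPA at 37 °C none of the 4 other measured members was called, against 1.59% lower and 2.4% higher over all measured genes. The log2 fold was -0.98 for Ifitm1, -0.32 for Ifitm2, 0.05 for Ifitm3 and 0.45 for Ifitm10. In 25°C_DMSO over 37°C_DMSO, Ifitm1 (-2.83) and Ifitm3 (-1.20) were lower and Ifitm2 was at -0.09. Over all measured genes 11.5% were lower and 6.45% higher there.

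Periostin (Postn), a matrix protein of periodontal ligament and periosteum, went the other way from most matrix genes in the cold. It had 6221 counts in 25°C_CPA, 6837 in 25°C_DMSO, 3094 in 37°C_CPA and 4503 in 37°C_DMSO. It was 2.10-fold higher in 25°C_CPA than in 37°C_CPA (2.01 to 2.19) and at 1.76 (1.69 to 1.83) in 25°C_DMSO over 37°C_DMSO, not called.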
